A study of Mus musculus with 6 samples.

Results

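The 10 genes described here encode the 5 subunits of the transcription factor NF-kappaB (Nfkb1, Nfkb2, Rela, Relb and Rel), 3 inhibitors that hold it in the cytoplasm (Nfkbia, Nfkbib and Nfkbie) and a pair of ubiquitin enzymes that regulate its activation (Tnfaip3 and Birc3). They were chosen by gene symbol, each matched 1 row of the 55450 in the deposited tables, and all 10 were among the 22056 genes with enough counts to be tested. RNA came from 6 flank tumours that C57BL/6 mice formed after subcutaneous injection of MTE-Ras, a cancer line of mouse tracheal epithelium with an oncogenic RAS mutation. Phosphate-buffered saline (PBS) was given into 3 of the tumours and PV-10, a rose bengal preparation, into 3. Both groups grew from this 1 line, and neither dose nor time of collection is given in the labels. By its title the study asks about PV-10 and immunogenic cell death, and the only comparison the design allows is PV-10 against PBS.

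NF-kappaB acts as dimers of its subunits. Nfkb1 and Nfkb2 are made as the precursors p105 and p100, which are processed to the DNA-binding subunits p50 and p52, while Rela (p65), Relb and Rel (c-Rel) carry the transactivation domains. In resting cells I kappa B proteins keep the dimers out of the nucleus, and signals from TNF, interleukin 1 and Toll-like receptors have the IKK kinase mark them for degradation. The freed dimers bind kappa B sites in DNA and induce, among many genes, those of their own inhibitors and some of their own subunits, so that Nfkbia and Tnfaip3 are textbook negative feedback genes.

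Kappa B motifs were looked for in the promoters because the feedback described above runs through such sites. RefSeq promoter windows on GRCm38.p6 were found for 8 of the 10 genes, namely Nfkb2, Rela, Rel, Nfkbia, Nfkbib, Nfkbie, Tnfaip3 and Birc3. The 250 bases upstream of each start were searched on both strands for the kappa B consensus of 3 G, 1 purine, 2 bases of any kind, 2 pyrimidines and 2 C. At least 1 match was present in 5 of these 8 genes (Nfkb2, Rel, Nfkbia, Nfkbie and Tnfaip3), against 10.2% of the 13628 tested genes with such a window. A match is a description of the letters and no evidence that the site is bound in these tumours. The window of Nfkbia (12:55492648-55492897, minus strand) is shown whole because it is the classical feedback promoter, written 5′ to 3′ with the match in capitals.
Nfkbia: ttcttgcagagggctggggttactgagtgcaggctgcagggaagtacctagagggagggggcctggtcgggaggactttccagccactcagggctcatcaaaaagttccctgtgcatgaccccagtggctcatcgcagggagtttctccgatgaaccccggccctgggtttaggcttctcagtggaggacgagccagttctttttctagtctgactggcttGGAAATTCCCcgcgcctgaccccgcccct

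The matches of the other 4 genes are shown with up to 10 bases on either side, in the direction of the gene, again with the match in capitals, so that their letters can be compared.
Nfkb2, upstream window: ggatcgtcacGGGAATTCCCcccctcgggg
Nfkb2, downstream window: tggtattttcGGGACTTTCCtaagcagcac
Rel: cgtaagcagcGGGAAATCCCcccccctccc
Nfkbie: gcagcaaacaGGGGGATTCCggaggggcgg
Tnfaip3, near the start: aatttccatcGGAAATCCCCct
Tnfaip3, farther upstream: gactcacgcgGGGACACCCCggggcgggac
These lie at 19:46304688-46304717 and 19:46305695-46305724 for Nfkb2, 11:23771042-23771071 for Rel, 17:45555584-45555613 for Nfkbie, and 10:19015411-19015432 and 10:19015516-19015545 for Tnfaip3, on GRCm38.p6. The stretches of Nfkb2 fall in exons of some Gencode transcripts, since the gene has several start sites. In Rel and in the upstream Nfkb2 window a further match on the opposite strand overlaps the one shown by all but 1 base, and Nfkb2 has 2 more matches that are not printed. No match was found in the windows of Rela, Nfkbib and Birc3.

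In PBS tumours Rela was the most abundant of the 10 genes and Rel the least. Levels are compared between genes as TPM, which is scaled to effective transcript length. Rela stood at 118, 98.0 and 88.3 TPM in PBS tumours 1, 2 and 3, clear of the next gene. Nfkb1 (25.1 to 37.3 TPM), Nfkb2 (21.7 to 33.4), Nfkbia (15.7 to 30.1) and Nfkbib (16.4 to 26.3) formed a middle group whose ranges overlapped between neighbours. Birc3 (4.19 to 11.8 TPM), Nfkbie (5.05 to 7.82), Relb (4.13 to 9.02), Tnfaip3 (3.89 to 5.23) and Rel (3.42 to 4.19) formed a low group, apart from the middle one and also overlapping between neighbours. In PV-10 tumours Rela still had the highest mean, 23.6 ± 21.4 TPM (SD, n = 3), but no 2 neighbours in the order had separate ranges. Rela made up 68.5%, 53.9% and 54.4% of the summed TPM of the 5 subunits in the PBS tumours and 42.7%, 49.9% and 57.6% in the PV-10 tumours, and these ranges overlapped.

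**Figure D1:**
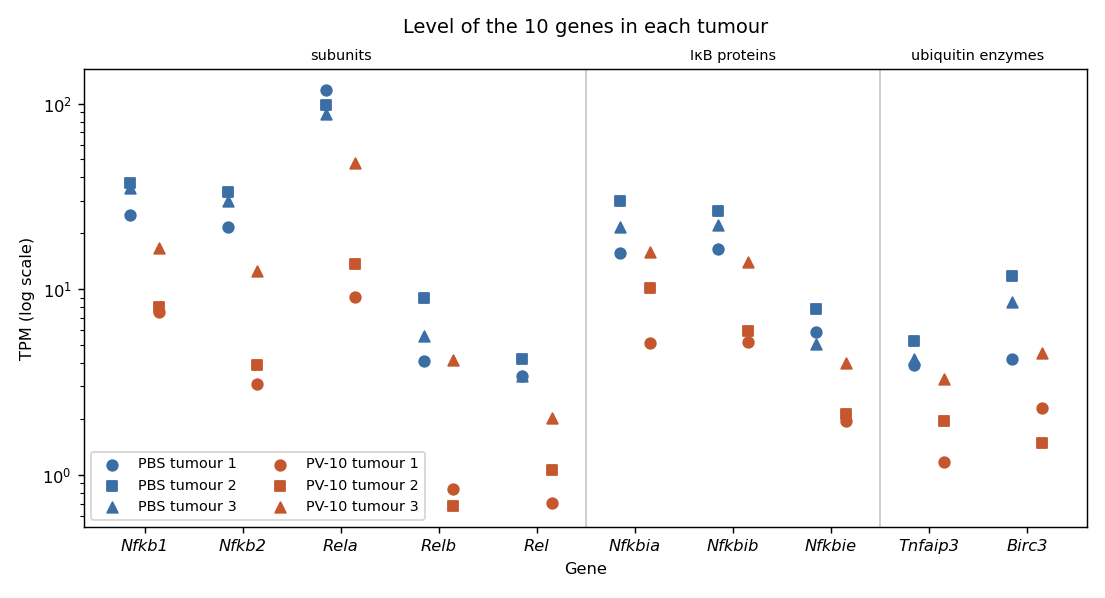
TPM (log axis) of the 10 genes in each of the 6 tumours, with blue symbols for PBS, red for PV-10 and 1 symbol shape per tumour number. Rela lies highest in every PBS tumour, and PV-10 tumour 3 is the highest of the PV-10 tumours for every gene.

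All 10 genes had lower fitted levels in PV-10 than in PBS tumours, by log2 changes from -0.31 to -1.40, but none passed the test (edgeR quasi-likelihood test, Benjamini-Hochberg adjusted p under 0.05, n = 3 per group), where 1.92% of all tested genes were called lower and 3.17% higher. At an unadjusted p under 0.05 there were 4 of the 10, Nfkb1, Nfkb2, Rela and Rel, all lower, against 14.5% of all tested genes. DESeq2 called the same 4 lower at an adjusted p under 0.05, where it called 8.63% of the 27077 genes it tested lower. The median log2 change was -0.72 over the 10 genes and 0.30 over all tested genes. A negative change was found for 10 of 10 and for 41.5% of all tested genes. All 10 genes have an average log2 CPM of 3 or more, where CPM is a count relative to the library's TMM-scaled total. In the 9686 tested genes at that level the median was -0.36, 64.8% had a negative change and 4.22% were called lower. The share at an unadjusted p under 0.05 was not taken at that level, so the 14.5% includes genes with few counts.

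In this fit the 5 subunits had the 5 lowest changes and the other 5 genes the rest. The split was not complete on every scale that accounts for transcript length. With each library's trend with effective length removed, Rel (-0.90) lay above Nfkbib (-1.18) and Nfkbie (-0.97). On the log2(TPM + 1) scale Rel (-1.09) lay above Nfkbib (-1.36), Birc3 (-1.26) and Nfkbia (-1.12). The remaining subunits still had the lowest changes on both. On the log2(TPM + 0.1) scale the split was complete but narrow, with Rel at -1.58 and Birc3, the lowest of the other 5 genes, at -1.54. The medians in the TMM fit were -1.05 for the subunits and -0.46 for the other 5 genes, the I kappa B genes, Tnfaip3 and Birc3. Of the 9686 genes at a similar level of counts, between 6.76% (for Nfkb2) and 27.3% (for Rel) had a change below that of a subunit. For the other 5 genes the corresponding shares ran from 38.7% for Nfkbib to 52.1% for Tnfaip3, so these genes lay near the middle of that distribution. The difference between the roles is a description and carries no test.

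**Figure D2:**
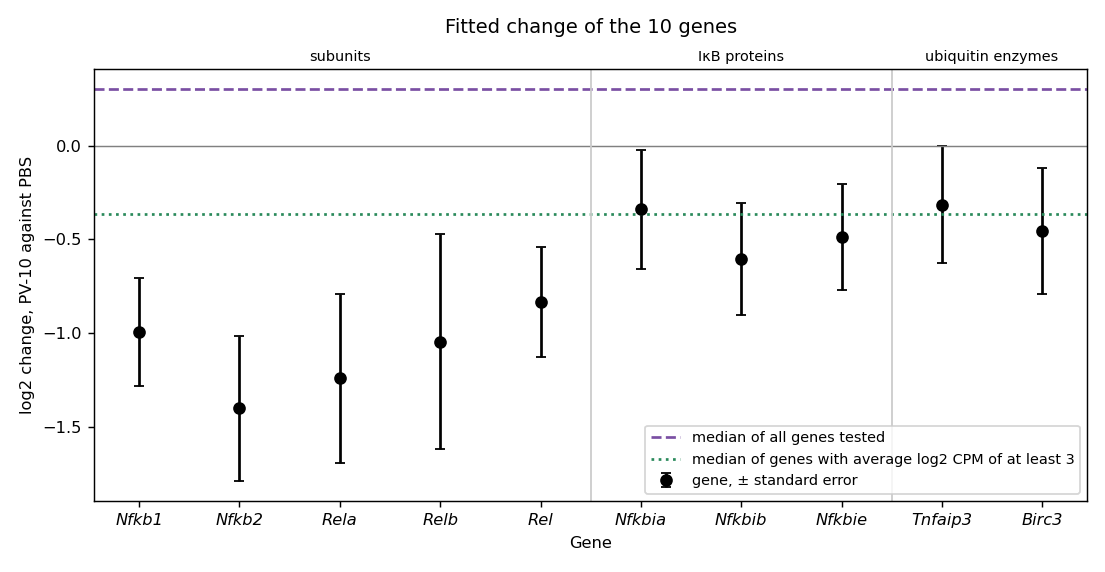
Fitted log2 change of each gene between PV-10 and PBS tumours (edgeR, 3 tumours per group), with bars of 1 standard error. The dashed line is the median of all tested genes (0.30) and the dotted line that of genes whose average log2 CPM is 3 or more (-0.36). The subunits lie between -1.40 and -0.83, and the I kappa B and ubiquitin enzyme genes between -0.60 and -0.31.

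Over all tested genes the log2 CPM of PV-10 tumour 3 correlated at 0.909 to 0.930 with the PBS libraries, against 0.874 with PV-10 tumour 1 and 0.822 with PV-10 tumour 2. Results with and without it are given below. Total counts were 87386266 to 98717951 in the PBS tumours and 60082066, 36730318 and 94203331 in PV-10 tumours 1, 2 and 3. The lowest count of any of the 10 genes was 74, for Relb in PV-10 tumour 2. The labels name 3 tumours per treatment without saying that each grew in a mouse of its own, so p-values measure only the spread between these samples. In bulk tumour RNA, fewer cells of a type and less RNA per cell cannot be told apart. Of the markers of the labelled cell type, Krt8 and Krt18 were abundant (129 to 164 and 181 to 219 TPM in PBS tumours), while Epcam was at 0 counts in PBS tumour 1 and at most 0.54 TPM elsewhere.

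Nfkb1, the gene of p105 and p50 (ENSMUSG00000028163.17, mm10 chromosome 3, 135584655 to 135691547), had 108, 111 and 114 CPM in PBS tumours 1, 2 and 3, against 44.5, 46.6 and 75.6 CPM under PV-10 in the same order. The PBS values were close together and the groups did not overlap, with PV-10 tumour 3 between the others and PBS. On the log2 scale it was lower with PV-10, at -0.996 (SE 0.29, edgeR adjusted p = 0.0632). Groups with all 3 PV-10 tumours below all 3 PBS tumours occurred in 16.8% of all tested genes in CPM, in 33.4% of those with an average log2 CPM of 3 or more, and in 4 of the 10 genes described here, which is near the share at that level.

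Nfkb2, the gene of p100 and p52, which serves the non-canonical pathway (ENSMUSG00000025225.15, mm10 chromosome 19, 46304320 to 46312385), had 94.5, 101 and 108 CPM with PBS, against 23.6, 27.2 and 63.8 CPM with PV-10. The groups were again apart. Its log2 change of -1.40 (SE 0.39, edgeR adjusted p = 0.0591) was the lowest of the 10. Its 25.4 CPM on average in PV-10 tumours 1 and 2 was 25.1% of the PBS mean, and PV-10 tumour 3 stood at 63.1%.

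Rela, whose protein p65 with p50 makes the best known NF-kappaB dimer (ENSMUSG00000024927.8, mm10 chromosome 19, 5637483 to 5648130), had 147, 138 and 128 CPM with PBS, against 26.5, 44.5 and 103 CPM with PV-10. The groups did not overlap, but PV-10 tumour 3 was much closer to the PBS tumours than to PV-10 tumour 1. Its fitted log2 change was -1.24 (SE 0.45, edgeR adjusted p = 0.10).

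Relb, the partner of p52 (ENSMUSG00000002983.17, mm10 chromosome 7, 19606217 to 19629438), had 9.58, 16.2 and 12.9 CPM with PBS, against 4.06, 2.03 and 12.5 CPM with PV-10. PV-10 tumour 3 lay within the PBS range and the other PV-10 tumours below it. The log2 change was -1.05 with the largest standard error of the 10 genes (0.57, edgeR adjusted p = 0.253).

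Rel, the c-Rel gene, most used in lymphoid and myeloid cells (ENSMUSG00000020275.9, mm10 chromosome 11, 23736847 to 23770970), had 35.8, 31.7 and 29.1 CPM with PBS, against 12.6, 17.2 and 24.3 CPM with PV-10. The groups did not overlap. For Rel the log2 change was -0.83 (SE 0.29, edgeR adjusted p = 0.0937).

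Nfkbia, which encodes I kappa B alpha, the inhibitor degraded and remade fastest (ENSMUSG00000021025.8, mm10 chromosome 12, 55489410 to 55492647), had 31.4, 42.1 and 35.3 CPM with PBS, against 17.3, 31.8 and 36.7 CPM with PV-10. Only PV-10 tumour 1 lay below the PBS range. The log2 change was -0.34 (SE 0.32, edgeR adjusted p = 0.494), and -0.07 without PV-10 tumour 1.

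Nfkbib, the gene of I kappa B beta (ENSMUSG00000030595.15, mm10 chromosome 7, 28758251 to 28767512), had 25.1, 29.0 and 27.6 CPM with PBS, against 13.8, 14.3 and 25.6 CPM with PV-10. PV-10 tumours 1 and 2 were about alike and below the PBS range, and tumour 3 was inside it. For Nfkbib the log2 change was -0.60 (SE 0.30, edgeR adjusted p = 0.209).

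Nfkbie, the gene of I kappa B epsilon (ENSMUSG00000023947.8, mm10 chromosome 17, 45555703 to 45563169), had 19.1, 18.6 and 13.1 CPM with PBS, against 10.7, 10.5 and 15.04 CPM with PV-10. The groups overlapped through PBS tumour 3 and PV-10 tumour 3. The log2 change was -0.49 (SE 0.28, edgeR adjusted p = 0.278).

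Tnfaip3, which encodes the ubiquitin-editing enzyme A20 (ENSMUSG00000019850.11, mm10 chromosome 10, 19000910 to 19015657), had 24.1, 19.5 and 18.6 CPM with PBS, against 10.2, 20.04 and 19.8 CPM with PV-10. PV-10 tumours 2 and 3 lay within the PBS range, and only tumour 1 was below it. Its log2 change of -0.31 (SE 0.31, edgeR adjusted p = 0.523) was the nearest to 0 of the 10, and without PV-10 tumour 1 it was -0.05.

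Birc3, the gene of the ubiquitin ligase cIAP2 (ENSMUSG00000032000.17, mm10 chromosome 9, 7848699 to 7873186), had 14.9, 19.2 and 15.1 CPM with PBS, against 9.66, 8.32 and 17.9 CPM with PV-10. PV-10 tumour 3 was above 2 of the 3 PBS tumours. For Birc3 the log2 change was -0.46 (SE 0.33, edgeR adjusted p = 0.384).

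**Figure D3:**
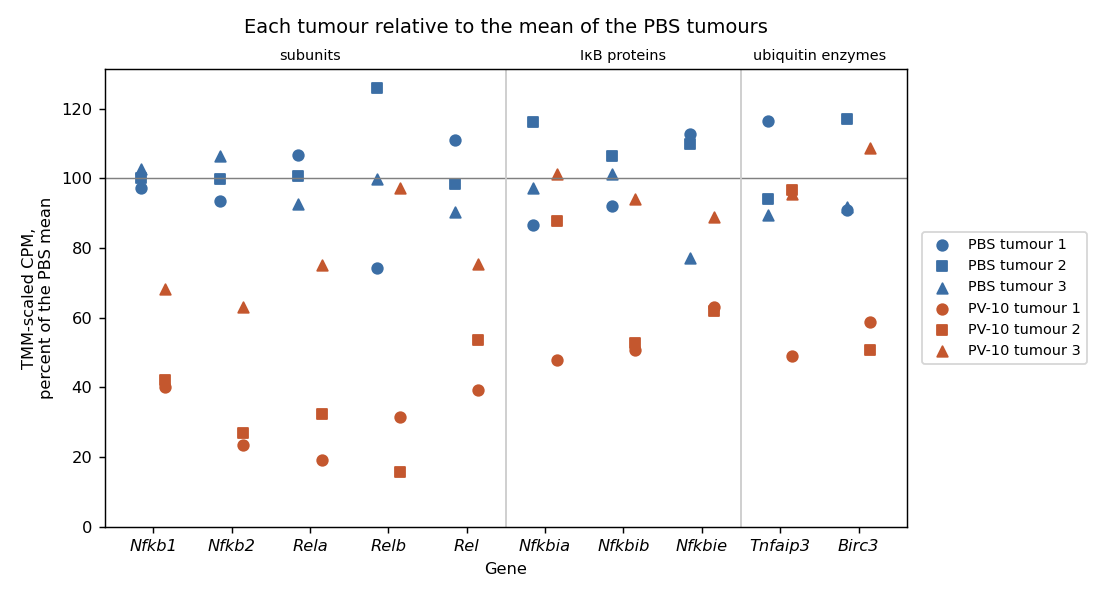
TMM-scaled CPM of each gene in each tumour as a percentage of the mean of the 3 PBS tumours, with the line at 100 marking that mean. In PV-10 tumour 3 Nfkb2 stands at 63.1% and Birc3 at 109%, while the mean of PV-10 tumours 1 and 2 runs from 23.6% for Relb to 72.8% for Tnfaip3.

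In PV-10 tumour 3 the 5 I kappa B and ubiquitin enzyme genes stood at 88.9% (Nfkbie) to 109% (Birc3) of the PBS mean in CPM. The subunits stood at 63.1% (Nfkb2) to 97.3% (Relb). Without that tumour, edgeR called 7 of the 10 genes lower, all but Nfkbia, Nfkbie and Tnfaip3, with log2 changes of -1.28, -1.99, -1.95, -2.07 and -1.11 for Nfkb1, Nfkb2, Rela, Relb and Rel and of -0.95 and -0.87 for Nfkbib and Birc3. In that setting 16.4% of the 27510 tested genes were called lower. Without any 1 of the other 5 tumours, 0 of the 10 genes were called by edgeR, with 2 to 4 at an unadjusted p under 0.05. In each of those 5 fits only 1 to 5 of all tested genes were called, and at most 0.00361% were called lower. Almost no gene of the whole table passed there, so the 0 is not particular to these 10. Against the PBS tumours, PV-10 tumour 3 alone gave log2 changes from -0.65 for Nfkb2 to 0.13 for Birc3, and Nfkbia (0.03) was the other gene above 0.

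The share of calls varied with the settings for these genes as for all others. Shares of genes called lower in settings other than the main edgeR fit, here, above and below, include genes with few counts. They were not taken over genes at the level of the 10. In the main fit the share called lower was 1.92% over all tested genes and 4.22% at that level. Nfkb1 and Nfkb2 were called lower with the size factors of DESeq2 in edgeR (4.84% of all tested genes called lower), with library size alone (6.62%), with a mean of at least 50 counts (7.04%) and with limma-voom (5.35%). Without a filter on low counts all 5 subunits were called lower, beside 6.70% of the genes tested. Without PBS tumour 2, 0.00361% of the genes tested were called lower, and with PV-10 tumour 3 alone 0.0125%, in both cases with 0 of the 10. With the replicate number as a block, Nfkb1, Nfkb2 and Rela were called, beside 8.24%.

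The scale also moved the size of the changes. On the log2(TPM + 1) scale limma called 6 of the 10 genes lower, the 5 subunits and Nfkbib, where 17.2% of all tested genes were called lower. Rela had the lowest change, -2.40, on that scale, and the median over all tested genes was -0.21 in place of 0.30. Relative to those medians, the median of the 10 genes was -1.10 with TPM and -1.02 with TMM-scaled counts. In TPM, 7 of the 10 genes had all PV-10 tumours below all PBS tumours (all but Relb, Nfkbia and Birc3), as did 31.0% of all tested genes. That share was not taken at the level of the 10 genes. In CPM the share was 16.8% over all tested genes and 33.4% at that level. A small structural RNA held the highest share of TPM in every library, 14.8% to 28.6%, and this share enters the TPM of every other gene.

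Ratios between genes within a library do not depend on how libraries are scaled. Count ratios can still carry a library's trend with effective transcript length. On the log2 scale, relative to the median gene, that length was 1.77 for Rel, 0.52 for Nfkb2 and 0.36 for Nfkb1. It was -0.62 for Nfkbia and -0.80 for Rela. The count of Rela over that of Nfkbia was 4.67, 3.29 and 3.62 in PBS tumours 1, 2 and 3 and 1.53, 1.40 and 2.81 in PV-10 tumours 1, 2 and 3. Every PV-10 tumour, the third included, was thus below every PBS tumour. Nfkb2 over Nfkbia was 3.01, 2.40 and 3.05 in PBS against 1.36, 0.854 and 1.74 in PV-10 tumours, and Nfkb1 over Nfkbia 3.44, 2.63 and 3.23 against 2.57, 1.46 and 2.06. Both were separate in counts, although Nfkb1 over Nfkbia overlapped in TPM.

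Rel over Nfkbia, at 0.752 to 1.14 in PBS and 0.541 to 0.729 in PV-10 tumours, was also separate, and Relb over Nfkbia overlapped. With the effective length trend removed, the log2 changes of Rel (-0.90) and Nfkbia (-0.87) were about alike, against -0.83 and -0.34 in the TMM fit. Those of Nfkb1, Nfkb2 and Rela were then -1.36, -1.63 and -1.73. Among the other I kappa B genes and the ubiquitin enzyme genes no ratio to Nfkbia was separate between the groups. Tnfaip3 over Nfkbia ran from 0.463 to 0.768 in PBS and from 0.540 to 0.629 in PV-10 tumours, and Nfkbib over Nfkbia from 0.688 to 0.798 and from 0.450 to 0.796. A count ratio to Nfkbia with all PV-10 tumours below all PBS tumours was found for 4 of the other 9 genes, for 9.81% of all tested genes and for 20.6% of those with an average log2 CPM of 3 or more. These ratios were picked out after the values were seen and are given without a test. With 3 tumours against 3, an exact two-sided permutation test cannot go below a p of 0.1.

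**Figure D4:**
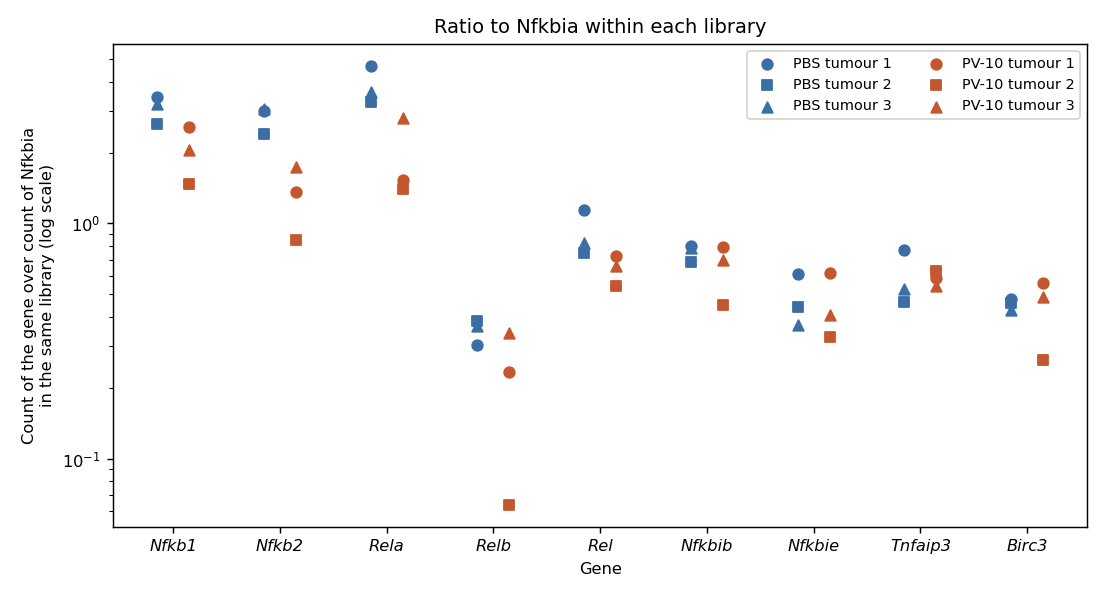
Count of each gene divided by the count of Nfkbia in the same library (log axis), with blue symbols for PBS and red for PV-10. PV-10 tumours lie below all PBS tumours for Nfkb1, Nfkb2, Rela and Rel, and the groups overlap for Relb, Nfkbib, Nfkbie, Tnfaip3 and Birc3.

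The summed TPM of the 5 subunits was 173, 182 and 162 in PBS and 21.2, 27.4 and 83.5 in PV-10 tumours. The sum of the 3 I kappa B genes was 38.0, 64.2 and 48.8 in PBS and 12.2, 18.2 and 33.9 in PV-10 tumours. Subunit RNA per I kappa B RNA was therefore 4.54, 2.83 and 3.32 in PBS and 1.73, 1.51 and 2.46 in PV-10 tumours, with the groups apart. RNA ratios do not measure the proteins, their processing or their place in the cell.

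Some marker sums of cell types differed along with these values. The 4 leukocyte genes (Ptprc, Coro1a, Laptm5 and Cd53) summed to 146 to 187 TPM in PBS and 29.4 to 108 TPM in PV-10 tumours, and to 351 to 394 and 166 to 336 CPM. Laptm5 was most of that sum in the PBS tumours and PV-10 tumour 3, but not in PV-10 tumours 1 and 2. It was at 232 to 277 CPM with PBS and 42.7 to 189 CPM with PV-10. In PV-10 tumour 1 Ptprc was higher, at 84.0 CPM against 42.7 CPM for Laptm5. Coro1a was higher in every PV-10 tumour (19.0 to 23.9 against 26.1 to 28.6 CPM), and Ptprc and Cd53 overlapped in CPM. None of the 4 was called or at 0. The 7 epithelial genes summed to 349 to 424 TPM in PBS and 154 to 298 TPM in PV-10 tumours, but overlapped in CPM at 520.3 to 865 and 508 to 694. Of these, Cdh1 was lower on both scales (8.75 to 10.3 against 3.06 to 5.62 CPM). Krt8 and Krt18 were lower in TPM but overlapped in CPM, and Epcam, Krt5, Krt14 and Krt19 overlapped on both. The sum of macrophage and monocyte genes overlapped between the groups at 629 to 850 and 502 to 699 TPM, as did that of fibroblast genes at 256 to 697 and 213 to 345 TPM. Single macrophage genes went different ways. Lyz2 was higher in every PV-10 tumour (337 to 547 against 751 to 1064 CPM), also in TPM. Csf1r was lower on both scales (159 to 257 against 56.4 to 138 CPM). Adgre1, Cd68, Cd14 and Mrc1 were lower in TPM but overlapped in CPM, and C1qa overlapped on both. Of the fibroblast genes, Pdgfrb was lower on both scales and Lum higher in CPM. The 4 adipocyte genes were low, and higher with PV-10 in CPM (3.31 to 6.23 against 7.36 to 19.1) but not in TPM, with Adipoq at 0 in all PBS tumours. The part of cell makeup in the values of the 10 genes was not tested.

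Other genes of the pathway were taken from lists by role. For comparison, 1.92% of all tested genes were called lower and 3.17% higher, with a median log2 change of 0.30. Among 16 nuclear I kappa B proteins and other brakes, 1 was called lower, 0 higher and 15 did not pass, with 12 negative changes and a median of -0.63. The gene called was Traf3, which restrains the non-canonical kinase NIK. It fell from 33.7, 42.5 and 41.0 CPM with PBS to 8.52, 11.6 and 18.8 CPM with PV-10, by 1.59 on the log2 scale (SE 0.33, edgeR adjusted p = 0.0443). All PV-10 tumours were below all PBS tumours. When any tumour other than PV-10 tumour 3 was left out, the edgeR adjusted p was between 0.0755 and 0.205. In each of those fits only 1 to 5 of all tested genes passed, so the loss of the call is not particular to Traf3.

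Among 15 genes of the IKK complex, upstream kinases and their partners 0 were called, with 11 negative changes and a median of -0.46. The most abundant were Tab2, a ubiquitin-binding partner of the kinase TAK1, at 277 to 293 CPM with PBS and 85.8 to 239 CPM with PV-10, and Irak1, a kinase of interleukin 1 and Toll-like receptor signalling, at 129 to 149 and 43.2 to 104 CPM. The groups of both were apart but neither passed (edgeR adjusted p = 0.125 and 0.0817). Among 19 adaptors and ubiquitin ligases 0 were called, with a median of -0.15. Ube2n, the enzyme that with its partner builds lysine-linked ubiquitin chains, was higher in each PV-10 tumour, at 236 to 338 CPM with PBS and 464 to 705 CPM with PV-10 (log2 change 1.04, edgeR adjusted p = 0.0590). For Ube2n the change was 0.25 on the log2(TPM + 1) scale (limma adjusted p = 0.514) and 0.21 with the effective length trend removed (adjusted p = 0.763). Sharpin, part of the linear ubiquitin ligase, was at 27.6 to 32.9 and 24.4 to 41.0 CPM.

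Of 14 receptors 0 were called, with a median of -0.20. The most abundant were the TWEAK receptor gene Tnfrsf12a and the TNF receptor gene Tnfrsf1a. Tnfrsf12a was at 94.7 to 122 CPM with PBS and 161 to 243 CPM with PV-10 (log2 change 0.86, edgeR adjusted p = 0.0750), and Tnfrsf1a at 141 to 155 and 38.0 to 113 CPM (log2 change -1.17, edgeR adjusted p = 0.0880). Neither passed the test, and on the log2(TPM + 1) scale the change of Tnfrsf12a was 0.03 (limma adjusted p = 0.958) and that of Tnfrsf1a -1.95 (limma adjusted p = 0.0244). Of 12 ligands 11 were tested and 0 called, with a median of 0.23. Hmgb1, a nuclear protein that signals when released, was at 285 to 452 and 417 to 677 CPM, and the alarmin gene Il33 at 45.6 to 84.7 and 35.5 to 51.7 CPM, with overlapping groups.

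Of 40 textbook targets 37 were tested, and 2 rose, 0 fell and 35 did not pass, with a median of 0.06. Over all tested genes 3.17% were called higher and 1.92% lower, with a median of 0.30. Cd83, a surface protein of activated dendritic and B cells, rose from 7.76, 5.38 and 6.17 CPM with PBS to 17.5, 16.2 and 16.0 CPM with PV-10 (log2 change 1.36, SE 0.27, edgeR adjusted p = 0.0443). PV-10 tumour 3 was as high as the other 2. Bcl2a1b, an anti-apoptotic BCL2 relative with near-identical paralogs among which reads may be split, rose from 8.04, 9.12 and 6.97 to 30.3, 39.7 and 17.8 CPM (log2 change 1.86, SE 0.33, edgeR adjusted p = 0.0443). On the log2(TPM + 1) scale neither passed, at 0.43 for Cd83 and 0.91 for Bcl2a1b (limma adjusted p = 0.313 and 0.0955). With any tumour other than PV-10 tumour 3 left out neither passed, with edgeR adjusted p of 0.0831 to 0.205 for Cd83 and 0.0735 to 0.205 for Bcl2a1b. In each of those fits only 1 to 5 of all tested genes passed, so the loss of the call is not particular to these genes.

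Across the 6 tumours the 10 genes did not all run in parallel. The pair most alike was Nfkb1 and Nfkb2, whose log2 CPM correlated at a Pearson r of 0.996, followed by Rela and Rel at 0.987 and by Relb and Birc3 at 0.975. Nfkbia and Tnfaip3 were each other's nearest, at 0.837, and Tnfaip3 was the least like Relb, at 0.341. These are descriptions over 6 tumours that share the difference between the groups and the position of PV-10 tumour 3. The genes whose log2 CPM was most like the mean profile of the 10 were Rab11fip5, Clic4 and Plbd2 (r of 0.999 each), and the least alike Akr1c13, Prpf38a and Dynlt1f (r of -0.997, -0.996 and -0.995). Of the 9400 genes searched, 34.5% had an r above 0.9, so a high r with this profile was common.

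**Figure D5:**
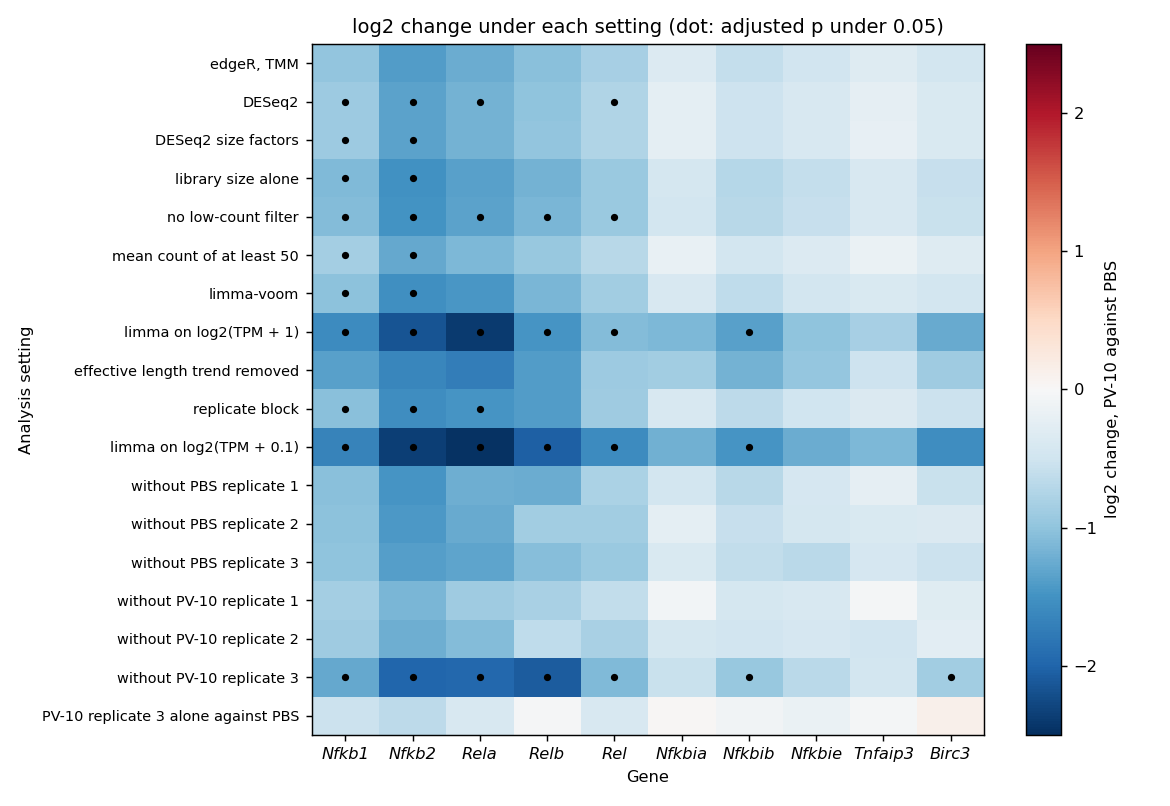
Fitted log2 change of each gene (colour) under each setting of the analysis, with a dot where the adjusted p was under 0.05. Every change is below 0 except those of Nfkbia (0.03) and Birc3 (0.13) with PV-10 tumour 3 alone, and dots stand mostly on the subunits.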

How the data were processed

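RNA-seq of 6 tumours (3 PBS, 3 PV-10) was analysed from the deposited tables. Per the labels' protocols, 100 ng of RNA went into strand-specific libraries, adapters were found with BBMerge 37.02 and removed with cutadapt 1.8.1, and reads were aligned to mm10 with STAR 2.7.7a. The deposited estimated counts came from RSEM 1.3.0 with Gencode M21 gene models, per the labels' protocols, and are whole numbers that are not normalized. The deposited TPM values are scaled to effective length and to a common total. RSEM shares reads among similar genes.

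Counts were tested with edgeR 4.0.16 (R 4.3.3; quasi-likelihood F test, robust, default expression filter, TMM), with Benjamini-Hochberg adjustment over 22056 genes and calls at an adjusted p under 0.05. A standard error is the absolute log2 change over the square root of F. Log2 CPM used a prior count of 2. Alternatives were DESeq2 1.42.0 (which the labels name as the authors' tool), its size factors, library size alone, 2 other filters, limma 3.58.1 (voom, or log2(TPM + 1) and log2(TPM + 0.1)), a correction for each library's trend with effective length (spline with 5 degrees of freedom; length from count over TPM), a replicate block, and leaving out tumours.

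The 10 genes and the lists were chosen with earlier results of these data known. Named besides the 10 were, from each pathway list, up to 4 called genes, or else the 2 most abundant by TPM, and the 3 genes most and least like the mean profile. Gene positions are from Gencode M21. Promoter sequences are RefSeq's on GRCm38.p6.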

Additional observations from a re-analysis of the deposited data

How the results depend on the processing

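With edgeR and all 6 tumours 0 of the 10 genes, 3 genes of the pathway lists and 1122 genes in all were called. DESeq2 gave 4, 30 and 8213, its size factors in edgeR 2, 8 and 2537, library size alone 2, 10 and 2441, no low-count filter 5, 20 and 4664, a mean of at least 50 counts 2, 10 and 2705, limma-voom 2, 9 and 2016, limma on log2(TPM + 1) 6, 30 and 4037, and on log2(TPM + 0.1) 6, 28 and 3998. With the effective length trend removed the counts were 0, 0 and 2, with changes of -0.52 (Tnfaip3) to -1.73 (Rela) for the 10 genes and a median of -0.26 over all genes. PV-10 tumour 3 alone gave 0, 0 and 18. Leaving out 1 tumour gave 0 to 7 of the 10 genes, 0 to 48 of the pathway lists and 1 to 11399 in all, the highest each time without PV-10 tumour 3. Of the genes called, 423 of 1122 were lower with TMM, 1068 of 2537 with the size factors of DESeq2, 1461 of 2441 with library size alone and 3786 of 4037 on log2(TPM + 1), where the median change of all genes was 0.30, 0.43, 0.21 and -0.21. Relative to it, the median of the 10 genes was -1.02, -1.06, -1.04 and -1.10. It was -2.49 with DESeq2, -2.44 without a filter, -0.64 with a mean of at least 50 counts, -0.81 with the length trend removed, -1.92 without PV-10 tumour 3 and -0.10 with that tumour alone, so its size depends on which genes and tumours enter.

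With the replicate number as a block the counts were 3 (Nfkb1, Nfkb2 and Rela), 14 and 2872. Deviations of equally numbered tumours correlated at -0.049, 0.071 and 0.072, and not every tumour correlated best with its own number. These values show no pairing by number, but with 3 tumours per group they cannot exclude it. Of 170 values of the 10 genes under alternatives 129 kept their direction and side of the threshold, 39 passed it with the same direction, and 2 changed sign, both with PV-10 tumour 3 alone: Nfkbia (0.029) and Birc3 (0.13). Sharpin changed sign with library size alone (-0.084), no filter (-0.075), limma-voom (-0.0040), log2(TPM + 1) (-0.38), log2(TPM + 0.1) (-0.39), the length trend removed (-0.75), the replicate block (-0.014), and without 1 tumour (-0.22 to 0.18). Hmgb1 changed sign with log2(TPM + 1) (-0.66), log2(TPM + 0.1) (-0.66) and the length trend removed (-0.12). The cause of these changes was not tested. Depth limits Relb most, with 74 counts in PV-10 tumour 2.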

Other observations

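Effective length, the count over TPM of a gene relative to the median gene of the same library, reflects which transcripts the quantification assigned reads to. On the log2 scale it was steady for Rel (1.74 to 1.81), Nfkbib (-1.04 to -0.94) and Nfkbie (0.03 to 0.09). It moved more for Rela, from -1.29 in PBS tumour 1 to -0.51 in PV-10 tumour 2, and for Birc3, from -0.52 in PBS tumour 3 to 0.27 in PV-10 tumour 2. The TPM of Rela in PBS tumour 1 (118) is therefore higher relative to its CPM (147) than in the other PBS tumours, which had 98.0 and 88.3 TPM at 138 and 128 CPM. No test was made of transcript use, since the tables hold gene values.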
